A study of Mus musculus with 12 samples.

Results

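Stra8 and 8 genes of the retinoic acid pathway were followed in mouse primordial germ cell-like cells (PGCLCs) kept in culture and in germ cells of the embryo. The 9 genes were taken by name from the 26218 gene rows of the expression table: the target gene Stra8, the binding protein genes Crabp1 and Crabp2, the receptor genes Rara, Rarb, Rarg and Rxra, and the degrading enzyme genes Cyp26a1 and Cyp26b1. Expression was measured by 3′-end RNA sequencing in 12 libraries, 2 in each of 6 groups, and is given as RPM, reads scaled to the library's total of reads in genes. The 3 culture groups, d4c3, d4c5 and d4c7, are PGCLCs sorted at day 4 of induction and sorted again after 3, 5 or 7 days on m220 feeder cells, a stromal line of which mainly 1 subline grown from single cells was used. They carried the Blimp1-mVenus and Stella-ECFP reporters (BVSC) on a C57BL/6 background, were sorted by Blimp1-mVenus fluorescence and labelled BVSC+, and gave 10 ng of RNA per library. From embryos came PGCs of embryonic day 9.5 (E9.5), not divided by sex, and germ cells of E12.5 males and E12.5 females. These carried the Stella-EGFP reporter (SG) on a background of ICR and C57BL/6 in equal parts, were sorted by its fluorescence, and gave 1 ng of RNA per library. Culture and embryo therefore cannot be told apart from strain, reporter, sort and RNA input. Labels do not say whether the 2 libraries of a group came from separate cultures or litters, so p-values reflect only how far these libraries spread, which may be technical.

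Retinoic acid is made from retinol by dehydrogenases and is carried in the cytoplasm by CRABP proteins. It binds RAR receptors, which sit on DNA as heterodimers with RXR receptors and activate genes when the ligand is bound, and CYP26 enzymes oxidise it. In the fetal ovary germ cells switch on Stra8, whose product is needed for entry into meiosis, while in the fetal testis Cyp26b1 of somatic cells is known to lower retinoic acid. Rarb, Cyp26a1 and Crabp2 are themselves textbook targets of the receptors. The labels name no retinoic acid among the additives that they list, and the composition of the expansion medium is not given in the sources used here.

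The response elements of these genes give the regulatory context. Sequences of the 250 bases before transcript starts were taken from RefSeq (GRCm38.p6), whose table had windows for 8 of the 9 genes, 13 windows in all. Receptor heterodimers bind pairs of a hexamer in the same direction, and the hexamers searched were AGGTCA, the variant AGTTCA, the variant GGGTCA and the variant GGTTCA. A pair with 5 bases between (the DR5 arrangement, searched on both strands; each pair also counts as hexamers) was found in windows of only 2 of these genes, Rarb and Cyp26a1, and in 32 of all 32817 windows of 300 bases in the table (0.0975%). The Rarb window is chr14:16575477-16575726 on the minus strand and lies inside the annotated span of the gene, with the pair at positions -53 to -37 from the transcript start. The Cyp26a1 window is chr19:37697558-37697807 on the plus strand, with the pair on the opposite strand at -32 to -16. The Stra8 window, chr6:34920698-34920947 on the plus strand, also lies inside the gene's annotated span. It held 2 single hexamers, at -194 to -189 and at -38 to -33, and no pair spaced by 1, 2 or 5 bases. At least 1 hexamer is found in 43.7% of all windows. The 3 windows are printed because they belong to the gene that changed most in culture and to the 2 genes with a pair. The Rarb window also held a further single hexamer, at -83 to -78, which is left in lower case. Capitals mark the other hexamers described, and a match is a description of letters, not of binding.
Stra8: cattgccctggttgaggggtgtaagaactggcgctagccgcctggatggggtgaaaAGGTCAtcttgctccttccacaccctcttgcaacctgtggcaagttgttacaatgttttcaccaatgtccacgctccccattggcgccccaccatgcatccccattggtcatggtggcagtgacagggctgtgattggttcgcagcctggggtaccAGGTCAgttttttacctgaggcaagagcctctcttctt
Rarb: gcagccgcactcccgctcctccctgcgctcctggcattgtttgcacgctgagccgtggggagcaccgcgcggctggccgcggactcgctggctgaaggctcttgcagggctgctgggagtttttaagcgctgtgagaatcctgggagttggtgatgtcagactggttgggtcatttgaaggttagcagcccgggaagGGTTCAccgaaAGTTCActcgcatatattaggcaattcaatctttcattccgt
Cyp26a1: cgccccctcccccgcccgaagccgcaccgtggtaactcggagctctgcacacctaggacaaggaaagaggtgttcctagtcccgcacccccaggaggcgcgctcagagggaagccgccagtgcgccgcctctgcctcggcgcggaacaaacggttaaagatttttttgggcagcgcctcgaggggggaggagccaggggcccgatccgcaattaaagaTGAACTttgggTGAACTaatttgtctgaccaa

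Depth was estimated at 2213555 to 5801877 reads in genes per library, from the RPM worth of 1 read, and 9324 to 9694 genes per library had at least 5 RPM. A gene listed at 0 had no read counted, which allows an expected level of up to 3 reads, equal to 0.517 RPM where depth was greatest and 1.36 RPM where it was least. Such floors and the intervals below cover counting error only. All 7 germ cell markers were above 0 in all 12 libraries. In the E9.5 libraries, 9 markers of blood and endothelium summed to 4279 and 3797 RPM, against at most 15.9 RPM in the 10 other libraries. The sum of 12 mesoderm and stromal markers was 165 and 171 RPM at E9.5 and 2.12 to 95.5 RPM elsewhere, with the 95.5 RPM in d4c5 replicate 1. Of 12 gonadal somatic markers, 8 were above 0 in both male libraries and 5 in both female libraries, while Amh, Cyp11a1 and Cyp17a1 were at 0 in all 4. In sorted bulk samples, fewer expressing cells and less RNA per cell cannot be told apart.

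A gene was tested where at least 2 of the 12 libraries reached 5 RPM, which left 10856 genes. Of the 9 pathway genes, 8 passed and Cyp26b1 did not. Stra8 passed through d4c7 and the E12.5 females alone, Rarb through E9.5 alone and Cyp26a1 through the culture groups alone, so counts over the genes that passed are descriptions. Differences were tested with limma on log2(RPM + 1) over all 12 libraries, with Benjamini-Hochberg adjustment over all 10856 genes, and a gene was called at an adjusted p under 0.05. Changes are given on that log2 scale with their SE. The scale understates changes of genes near 0.

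Stra8 rose late in culture. It lies on chromosome 6 (34920163 to 34939344, plus strand, NCBI gene 20899). It was at 0 and 0.444 RPM in d4c3 and at 0.390 and 0.452 RPM in d4c5, each no more than 1 read. In d4c7 it was at 11.0 RPM (28 reads) and 8.79 RPM (51 reads). Neither d4c7 library overlapped the earlier cultures. Between d4c3 and d4c7 Stra8 rose by 3.17 ± 0.38 (SE; adjusted p = 0.000763, limma), and between d4c5 and d4c7 by 2.93 ± 0.38 (adjusted p = 0.0125). From reads pooled within each group, 79 in d4c7 against 1 in d4c3, the ratio of levels was 45.5, with a 95% counting interval of 7.94 to 1821. Against the 2 reads of d4c5 it was 22.6 (6.06 to 190). Stra8 passed the filter through d4c7 and the E12.5 females alone, so an excess of d4c7 over the earlier cultures was favoured by the filter. With no filter the call against d4c3 was kept. A fit of the compared groups alone ended both calls, with adjusted p of 0.139 for d4c7 against d4c3 and of 1 for d4c7 against d4c5. The call against d4c5 was also lost without d4c5 replicate 1 (adjusted p = 0.0739) or d4c5 replicate 2 (0.147), and with no filter (0.121). Mesoderm and stromal markers summed to 33.0 and 14.0 RPM in the d4c7 libraries, against 14.1 and 16.0 RPM in d4c3, and their part in the result was not tested.

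In the embryo Stra8 was high in E12.5 females. It was at 0.735 and 0.236 RPM at E9.5, at 1.25 and 0.301 RPM in E12.5 males, and at 37.0 and 38.0 RPM (122 and 151 reads) in E12.5 females. The female libraries lay above every other library of the series. Females exceeded males by 4.49 ± 0.38 (adjusted p = 6.49e-06) and E9.5 by 4.72 ± 0.38 (adjusted p = 1.24e-06, limma). The pooled ratio of females to males was 48.9 (counting interval 20.7 to 152, 273 against 5 reads), and of females to E9.5 87.0 (29.5 to 425, 273 against 3 reads). Ordered by level, E12.5 females stood first and d4c7 second, both clear of their neighbours, and the libraries of each of the 4 other groups overlapped those of its neighbours. The d4c7 level was lower than that of females by 1.83 on the log2 scale (a change of -1.83 ± 0.38, adjusted p = 0.00210) and higher than that of males by 2.66 ± 0.38 (adjusted p = 0.000148). Given how Stra8 passed the filter, the excess of females over males and E9.5, and of d4c7 over males, was favoured by it. Those calls were kept with no filter. The rise in culture exceeded the change from E9.5 to E12.5 males by 2.95 ± 0.54 (adjusted p = 0.00264). Its difference from the rise in females was -1.54 ± 0.54 and was not called (adjusted p = 0.0641), although it was with a pseudocount of 5 (0.00135) or no mean-variance trend (0.0389).

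**Figure D1:**
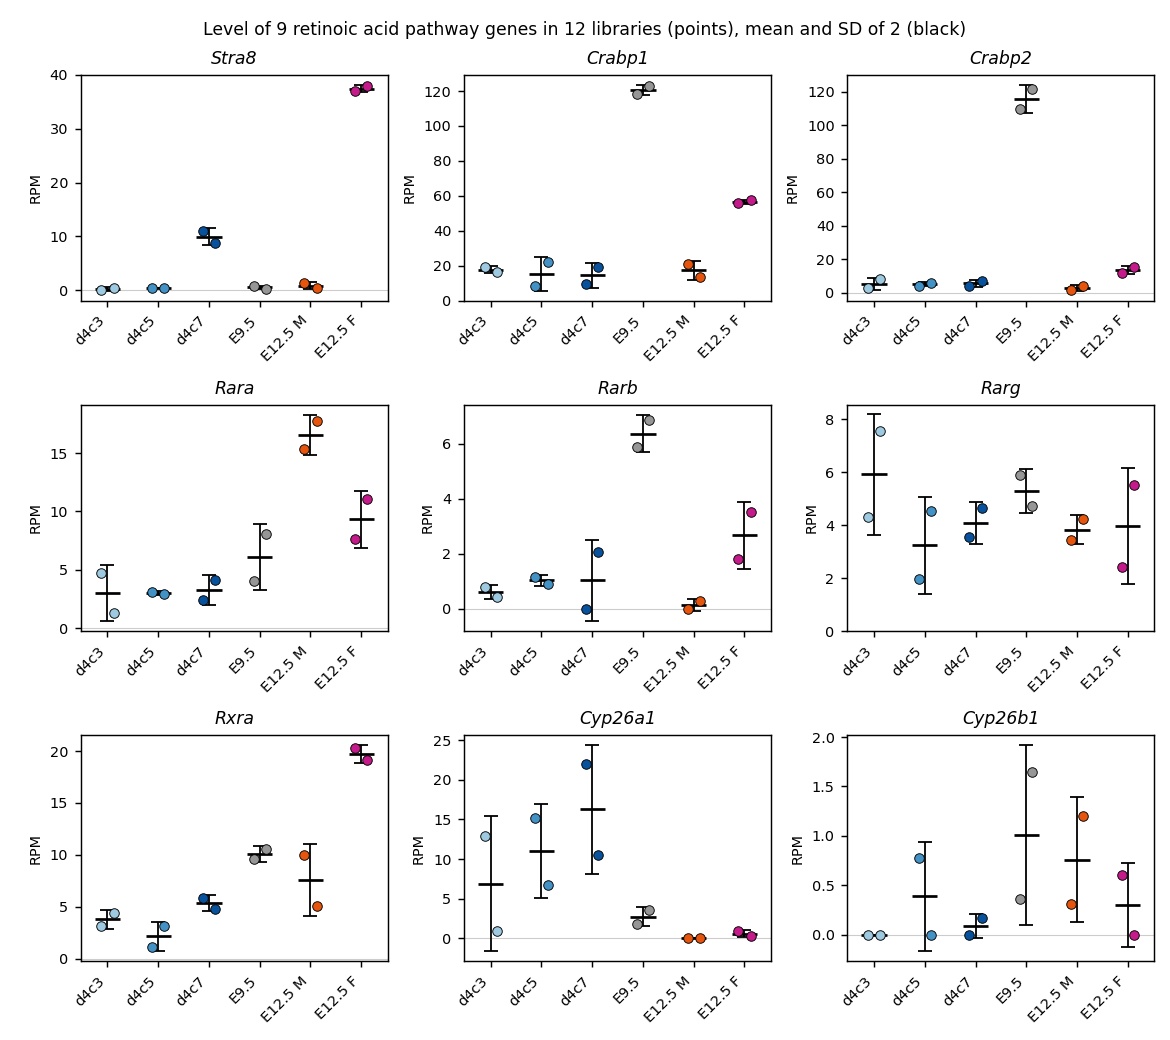
Expression of the 9 genes in RPM (vertical axes, linear, each with its own range) by group (horizontal axis); points are the 12 libraries, and black lines with bars are the mean and SD of 2. Stra8 stands at 8.79 to 11.0 RPM in d4c7 and 37.0 to 38.0 RPM in E12.5 females and at no more than 1.25 RPM elsewhere, while Crabp1, Crabp2 and Rarb are highest at E9.5.

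No other tested gene of the pathway was called during culture. From d4c3 to d4c7, 1 of the 8 tested genes was called, against 2.75% of all genes tested (1.67% called higher). From d4c5 to d4c7 it was again 1 of 8, against 0.0184% of all genes, which is 2 genes of 10856. From d4c3 to d4c5 limma called 0 of 8, with 0 at an unadjusted p under 0.05, against 0.0829% of all genes. Cyp26a1 was the other gene under an unadjusted p of 0.05 from d4c3 to d4c7, and Rxra from d4c5 to d4c7. Receptor and binding protein genes ranged as follows over the 6 culture libraries. Rara was between 1.33 and 4.69 RPM there, Rarg between 1.95 and 7.54 RPM, Rarb between 0 and 2.07 RPM, Crabp1 between 8.57 and 22.1 RPM and Crabp2 between 2.74 and 7.98 RPM.

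The cytoplasmic binding proteins were highest at E9.5. Crabp1 (chromosome 9, 54764748 to 54773110, plus strand, NCBI gene 12903) was at 118 and 123 RPM at E9.5, at 20.9 and 13.5 RPM in E12.5 males and at 55.8 and 57.3 RPM in E12.5 females. Crabp2 (chromosome 3, 87948693 to 87953372, plus strand, NCBI gene 12904), which delivers retinoic acid to the receptors, was at 110 and 122 RPM at E9.5, at 1.88 and 4.21 RPM in males and at 12.1 and 15.3 RPM in females. For both genes the 3 embryonic groups did not overlap, and females lay between E9.5 and males. From E9.5 to males Crabp1 changed by -2.77 ± 0.37 (adjusted p = 7.01e-05) and Crabp2 by -4.91 ± 0.41 (adjusted p = 1.24e-06, limma). From E9.5 to females Crabp1 changed by -1.08 ± 0.37 (adjusted p = 0.0342) and Crabp2 by -2.99 ± 0.41 (adjusted p = 0.000104). The Crabp1 call in females was lost without any 1 of the 4 libraries compared, with adjusted p of 0.117 to 0.155, with no filter (0.109) and with no mean-variance trend (0.0803). Of the 8 genes tested, 4 were called between E9.5 and males (background 37.7% of all genes) and 3 between E9.5 and females (37.5%). The E9.5 level moves with the blood and mesoderm marker sums given above, and their part in these results was not tested.

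Cultured cells were below the E9.5 levels of both genes. In the culture groups Crabp1 had means of 17.8 ± 1.95 RPM in d4c3, 15.4 ± 9.59 RPM in d4c5 and 14.5 ± 7.11 RPM in d4c7 (SD, n = 2 each), which overlapped each other and the male libraries. Crabp2 had means of 5.36 ± 3.71 RPM, 5.08 ± 1.12 RPM and 5.78 ± 2.06 RPM. Compared with E9.5, d4c3 was different by -2.70 ± 0.37 for Crabp1 (adjusted p = 0.000145) and by -4.33 ± 0.41 for Crabp2 (adjusted p = 7.93e-06). In that comparison 4 of 8 genes were called, all lower in d4c3, against 23.7% of all genes (10.3% lower). Of the 4, Rarb passed the filter through E9.5 alone, and the part of the blood and mesoderm markers high at E9.5 was not tested. The difference in Crabp2 between the change in culture and that in the embryo was called for both sexes, at 5.11 ± 0.59 against males (adjusted p = 0.000108) and 3.19 ± 0.59 against females (adjusted p = 0.00265). Crabp1 was not called from d4c3 to d4c7 (-0.36 ± 0.37) and fell from E9.5 to males, and the difference between these changes was 2.41 ± 0.52 (adjusted p = 0.00689).

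The receptors differed in where they were high. Rara (chromosome 11, 98927800 to 98974942, plus strand, NCBI gene 19401; a small nuclear RNA gene, Gm22061, lies on the same strand) encodes the receptor RARα. It was at 4.07 and 8.08 RPM at E9.5, at 15.3 and 17.8 RPM in E12.5 males and at 7.60 and 11.1 RPM in E12.5 females. The male libraries were the highest of the series and overlapped no other group. From E9.5 to males Rara rose by 1.37 ± 0.44 (adjusted p = 0.0241, limma), while the sexes were not called different (-0.78 ± 0.44 for females against males, adjusted p = 0.284). The rise in males was lost without E9.5 replicate 1 (adjusted p = 0.217), male replicate 1 (0.0731) or male replicate 2 (0.120), and with no filter (0.0751). In d4c7 Rara was at 2.38 and 4.15 RPM, which differed by -2.07 ± 0.44 from males (adjusted p = 0.00238).

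Rxra (chromosome 2, 27676445 to 27763319, plus strand, NCBI gene 20181) encodes RXRα, the common partner of the RARs. It was at 20.3 and 19.1 RPM in E12.5 females, at 10.0 and 5.12 RPM in males, at 9.56 and 10.6 RPM at E9.5, and between 1.17 and 5.89 RPM in culture. The female libraries lay above all others. Females exceeded males by 1.34 ± 0.38 (adjusted p = 0.0347, limma), a call lost without male replicate 2 (adjusted p = 0.277), female replicate 1 (0.154) or female replicate 2 (0.135). Against d4c7, which was lower, the difference from females was -1.71 ± 0.38 (adjusted p = 0.00305). Against E9.5, d4c3 differed by -1.22 ± 0.38 (adjusted p = 0.0308), a call lost with each of the 4 libraries left out (0.0613 to 0.175).

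Rarb (chromosome 14, 16430839 to 17082331, minus strand, NCBI gene 218772) encodes RARβ, whose own transcription follows retinoic acid. It was at 5.88 and 6.84 RPM at E9.5 (16 and 29 reads), at 0 and 0.301 RPM in males and at 1.82 and 3.52 RPM in females. It changed by -2.69 ± 0.48 from E9.5 to males (adjusted p = 0.000703, limma), and the pooled ratio of E9.5 to males, 45 reads against 1, was 42.2 (counting interval 7.19 to 1702). Rarb passed the filter through E9.5 alone, so a fall from E9.5 was fixed by the filter and these values are descriptions. Females exceeded males by 1.65 ± 0.48 (adjusted p = 0.0406, limma), a call lost with every library left out in turn, with adjusted p from 0.0748 without female replicate 1 to 0.248 without female replicate 2. The 3′ end of Rarb overlaps Top2b on the opposite strand and the antisense gene Gm48162 also overlaps it. The strand setting of the counting is not given in the sources used here, so reads of these genes cannot be told apart. Top2b was at 48.1 ± 0.991 RPM at E9.5, 38.8 ± 5.51 RPM in females, 21.8 ± 4.92 RPM in males and 33.1 ± 1.47 RPM in d4c3. Its part in the result, and that of the blood and mesoderm markers high at E9.5, was not tested.

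Rarg (chromosome 15, 102234938 to 102257522, minus strand, NCBI gene 19411), which encodes RARγ, was between 1.95 and 7.54 RPM in the 12 libraries. It was called in 0 of 11 comparisons, with a lowest adjusted p of 0.475 (limma). At such levels a modest difference was not detectable at this depth.

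Of 8 tested genes, 5 were higher in female than in male germ cells: Stra8, Crabp1, Crabp2, Rarb and Rxra. None was called lower. Over all genes 6.68% were called higher in females and 11.9% in either direction. The excess was 1.69 ± 0.37 for Crabp1 (adjusted p = 0.00900) and 1.92 ± 0.41 for Crabp2 (adjusted p = 0.00817, limma). The Crabp1 call was lost without male replicate 2 (adjusted p = 0.109), female replicate 1 (0.0621) or female replicate 2 (0.0696). The Crabp2 call was lost without male replicate 1 (0.0980) or female replicate 2 (0.0790). With 1 library left out, 1 to 3 of the 5 calls were made, and Stra8 was called each time. With no filter the calls of Crabp1 (0.0569), Rarb (0.101) and Rxra (0.101) were lost. Mesoderm and stromal markers summed to 5.31 and 5.42 RPM in males and 2.12 and 6.03 RPM in females, and blood and endothelium markers to 9.85 and 14.9 RPM in males and 15.9 and 11.4 RPM in females, so these sums overlapped between the sexes. The sum of the 12 gonadal somatic markers did not overlap, at 33.4 and 32.8 RPM in males and 45.8 and 48.0 RPM in females. Insl3 alone gave 14.4 and 21.4 RPM of it in males and 40.3 and 37.7 RPM in females, and the 11 others summed to 19.1 and 11.4 RPM in males and 5.46 and 10.3 RPM in females. Insl3 was also at 23.2 to 44.6 RPM in the culture libraries and at 17.6 RPM in both E9.5 libraries, so it was not particular to the E12.5 germ cells. The part of all these markers in the results was not tested.

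**Figure D2:**
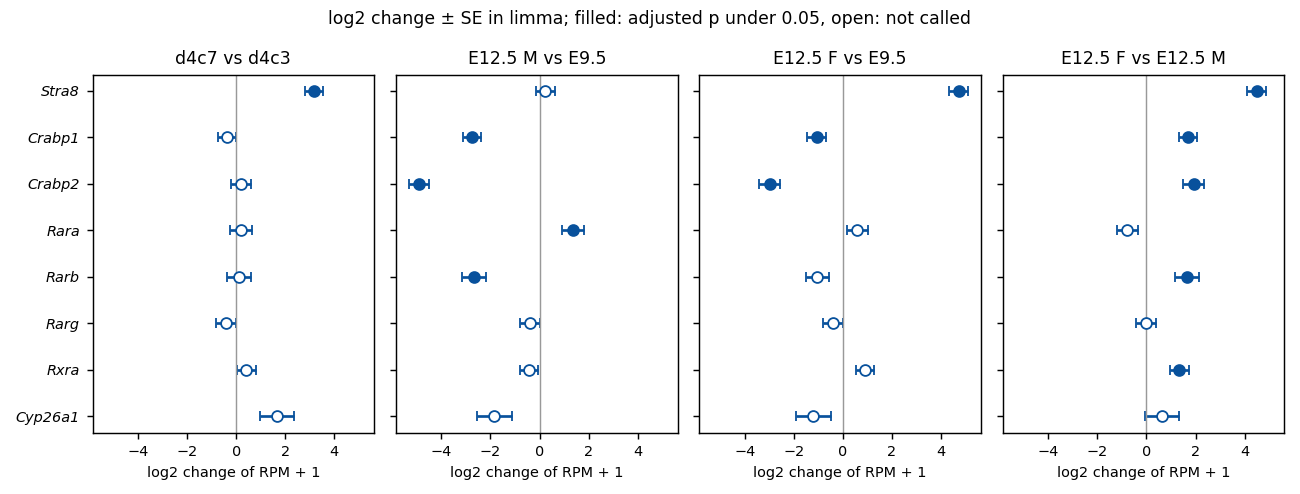
Log2 changes with SE from limma (horizontal axis, log2(RPM + 1) scale) of the 8 tested genes in the comparisons named; filled points are called at an adjusted p under 0.05. Stra8 changed by 3.17 in culture and by 4.49 between the sexes, and Crabp2 changed by -4.91 from E9.5 to males.

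The degrading enzyme gene Cyp26a1 had its highest levels in culture, although d4c3 replicate 2 lay below both E9.5 libraries. It lies on chromosome 19 (37697738 to 37701536, plus strand, NCBI gene 13082) and encodes an oxidase that removes retinoic acid. It was at 12.9 and 0.887 RPM in d4c3, at 15.2 and 6.78 RPM in d4c5 and at 22.0 and 10.5 RPM in d4c7. The mesoderm and stromal marker sum was 14.1 and 16.0 RPM, 95.5 and 12.3 RPM, and 33.0 and 14.0 RPM in the same libraries, and its part was not tested. Replicate 1 was the higher library in each of the 3 culture groups, and neighbouring culture groups overlapped. In the embryo it was at 1.84 and 3.54 RPM at E9.5, at 0.909 and 0.251 RPM in females and at 0 in both male libraries. From d4c3 to d4c7 its change of 1.67 ± 0.71 was not called (adjusted p = 0.252), and it ran from 0.23 to 3.11 over the alternatives, the extremes coming from leaving out 1 or the other d4c3 library. Against E12.5 females, d4c7 was higher by 3.40 ± 0.71 (adjusted p = 0.00199, limma). Against males, with both at 0, d4c7 was at least 17.3-fold higher, taking 3 reads per library as the floor (adjusted p = 0.000652), and at least 11.2-fold from d4c7 replicate 2 alone. Cyp26a1 passed the filter through the culture groups alone, so an excess of d4c7 over the embryo was favoured by the filter. Both calls were kept with no filter. Of 8 tested genes, 3 were called between d4c7 and males (background 36.6%) and 6 between d4c7 and females (38.9%). The 6 were Cyp26a1 and, lower in d4c7, Stra8, Crabp1, Crabp2, Rara and Rxra. The calls of Crabp2 (adjusted p = 0.0414) and Rara (0.0311) were lost without d4c7 replicate 1 (0.205 and 0.162), female replicate 1 (0.0893 and 0.0578) or female replicate 2 (0.189 and 0.180).

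The change of Cyp26a1 from d4c3 to d4c7 exceeded that from E9.5 to males by 3.51 ± 1.00 (adjusted p = 0.0277). That call was lost without d4c3 replicate 2 (adjusted p = 0.0910), d4c7 replicate 1 (0.0598), E9.5 replicate 1 (0.0683) or 2 (0.123), or male replicate 1 (0.0763) or 2 (0.0793), and with a pseudocount of 5 (0.0669), no filter (0.109) or no mean-variance trend (0.0768). The change from E9.5 to males, -1.84 ± 0.71, was not called (adjusted p = 0.0536) and was called under 4 alternatives, with adjusted p down to 0.00245. In all, 5 of 8 genes differed between culture and the male course (background 16.9%, and 8.89% with the larger change in culture, as for these 5), and 1, Crabp2, between culture and the female course (17.6%). Against the male course, 6 of 7 tested mesoderm and stromal markers and 5 of 5 blood and endothelium markers were also called in that direction. These markers were high at E9.5, as were Crabp1, Crabp2 and Rarb, and their part in the counts was not tested. Rarb passed the filter through E9.5 alone. The Rarb difference of 2.81 ± 0.68 (adjusted p = 0.0127) was lost without E9.5 replicate 2 (0.0553) or male replicate 1 (0.0508). Cyp26b1 (chromosome 6, 84571414 to 84593908, minus strand, NCBI gene 232174) was at 0 in 5 of 12 libraries. Its highest value was 1.65 RPM (7 reads) in E9.5 replicate 2, and no difference was detectable at this depth.

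Most tested genes of retinol uptake and retinoic acid synthesis were called from E9.5 to E12.5 males in the fit reported. A list of 15 genes of retinol uptake and retinoic acid synthesis had 10 tested members. From d4c3 to d4c7 1 rose and 0 fell, against 2.75% of all genes called. From E9.5 to males 4 rose and 5 fell (37.7% of all genes called), with a median change of -0.54 against 0.05 over all genes. Alternative settings that kept all libraries called 4 to 9 there, and a filter at 10 RPM also tested fewer of the genes. From E9.5 to females 1 rose and 3 fell (37.5% called; median -0.33 against 0.04), a share near that of all genes. Of the 10, Stra6 and Rbp4 passed the filter through E9.5 alone, and Aldh1a1 and Adh1 through E12.5 males alone. The counts are therefore descriptions. Aldh1a2, the main embryonic retinaldehyde dehydrogenase gene, was at 26.5 and 34.4 RPM at E9.5, at 7.19 and 4.82 RPM in males and at 6.06 and 4.78 RPM in females, a change of -2.18 ± 0.41 in males (adjusted p = 0.000918) and -2.29 ± 0.41 in females (adjusted p = 0.000695, limma). Stra6, the retinol uptake receptor gene, was at 9.56 and 5.43 RPM at E9.5 and at most 0.909 RPM elsewhere. Both were high in the libraries with the high blood and mesoderm marker sums, whose part was not tested.

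Adh5, a broadly expressed alcohol dehydrogenase gene, was the 1 list member called in culture and rose from 364 ± 15.0 RPM to 507 ± 33.9 RPM (adjusted p = 0.0211), a call lost without d4c3 replicate 1 (0.183) or 2 (0.0604), with no filter (0.0610), with no mean-variance trend (0.130) and in the compared groups alone (0.346).

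Both dehydrogenase genes that differed between the sexes were higher in males. Aldh1a1, a retinaldehyde dehydrogenase gene, was at 5.94 and 9.03 RPM in males and at most 1.21 RPM in the other 10 libraries, and the sexes differed by -2.49 ± 0.46 for females against males (adjusted p = 0.00353; 0.0520 without female replicate 2). Adh1, an alcohol dehydrogenase gene, was at 6.25 and 6.62 RPM in males and at 0 and 0.251 RPM in females (adjusted p = 0.00269, limma). Both genes passed the filter through males alone, so a male excess was fixed by the filter and these values are descriptions. The 11 gonadal somatic markers other than Insl3 also had the higher sums in males, as given above. The sum of all 12 was higher in females, and Insl3 was itself called higher there, although Insl3 was also present in culture and at E9.5, as given above. Sox9, a Sertoli cell gene, was at 1.25 and 1.81 RPM in males and at 0 in females (adjusted p = 0.0354, limma). Sox9 passed the filter through E9.5 alone, and Amh was at 0 in both sexes. The part of these markers was not tested. Fabp5, which encodes a lipid carrier that also binds retinoic acid, averaged 9.98 ± 0.247 RPM in females, 41.9 ± 1.95 RPM in males and 100.3 ± 0.710 RPM at E9.5, and was the binding protein gene that was lower in females (-1.97 ± 0.22, adjusted p = 9.60e-05). Rxrb, a further RXR gene, rose from 29.0 ± 1.04 RPM at E9.5 to 49.9 ± 1.98 RPM in males (adjusted p = 0.0224), a call lost with each of the 4 libraries left out (adjusted p of 0.0781 to 0.117).

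**Figure D3:**
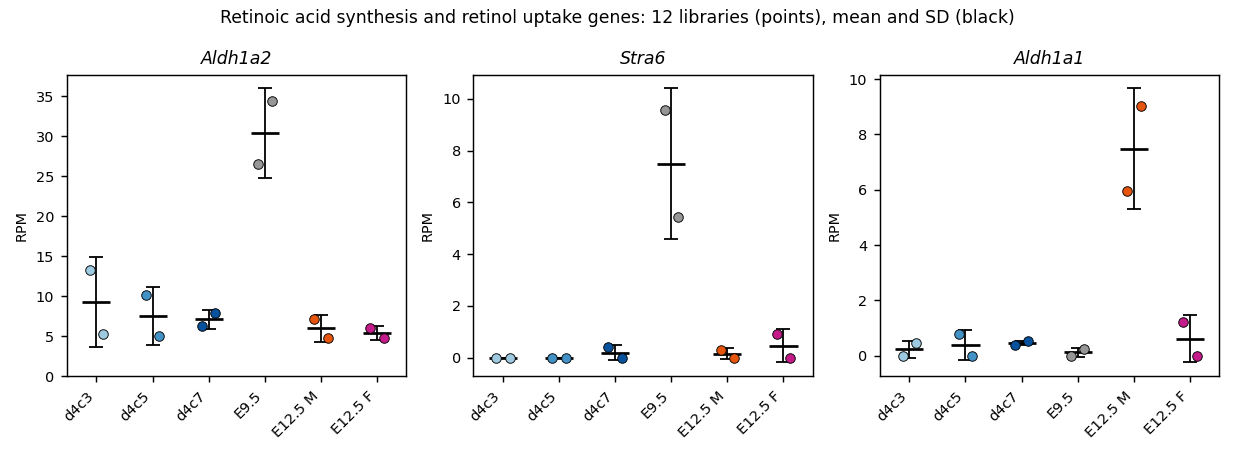
Expression of Aldh1a2, Stra6 and Aldh1a1 in RPM (vertical axes, linear, each with its own range) in the 6 groups; points are libraries, black lines and bars the mean and SD of 2. Aldh1a2 and Stra6 are highest at E9.5, and Aldh1a1 is at 5.94 and 9.03 RPM in E12.5 males and at most 1.21 RPM elsewhere.

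Among the tested genes that retinoic acid is known to induce, Stra8 was the 1 called higher in culture. Of 16 such genes 10 were tested, and from d4c3 to d4c7 1 rose, Stra8, and 0 fell (2.75% of all genes called; median change 0.22 against 0.02 over all genes). From E9.5 to males 0 rose and 6 fell (37.7% of all genes called), and to females 1 rose and 5 fell (37.5%). Of the 10, 5 passed the filter through E9.5 alone, Rarb, Stra6, Hoxa3, Meis1 and Meis2, so their fall from E9.5 was fixed by the filter and the counts are descriptions. These 5 were under 5 RPM in every culture library, so the count in culture says little about them. Stra8 itself passed through d4c7 and the E12.5 females alone. The 6 that fell in males were Rarb, Crabp2, Stra6 and the homeobox genes Hoxa3, Meis1 and Meis2. Hoxa3 was at 7.72 and 8.49 RPM at E9.5 and at most 0.393 RPM elsewhere, and Meis2 was at 22.8 and 36.8 RPM at E9.5 and at most 4.38 RPM elsewhere. These homeobox genes also mark somatic tissues, and the part of other cells in the E9.5 libraries was not tested. Between females and males 3 were higher in females, Stra8, Rarb and Crabp2, and 0 lower (11.9% of all genes called).

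Stra8 acts with other genes at meiotic entry, and part of that list rose in culture. Of 12 listed genes 10 were tested. From d4c3 to d4c7 5 rose, Stra8, Dazl, Sycp3, Hormad1 and Smc1b, and 1 fell, Msx2 (median change 1.08 against 0.02), where 2.75% of all genes were called. From E9.5 to females 9 rose and 0 fell (37.5% of all genes called), and to males 6 rose and 2 fell (37.7%). Dazl, Sycp3, Hormad1 and Smc1b rose from E9.5 in males as well as in females. Sycp3 was at 16.3 and 19.6 RPM in males and at 26.7 and 20.2 RPM in d4c7, and these groups were not called different. A fit of the compared groups alone called 0 of the listed genes in culture (6 in the fit over all groups). Sycp3, of the meiotic chromosome axis, rose in culture from 6.49 ± 3.54 RPM to 23.4 ± 4.62 RPM (adjusted p = 0.0246, limma), a call lost without d4c3 replicate 1 (0.0502) or 2 (0.178) or d4c7 replicate 1 (0.0775), with no filter (0.114) and with no mean-variance trend (0.0638), and stood at 44.9 ± 4.38 RPM in females. Rec8, the meiotic cohesin gene, was at 44.3 and 55.6 RPM in females, at 4.06 and 1.81 RPM in males and at 9.82 and 14.8 RPM in d4c7, and from d4c3 to d4c7 it was not called (0.47 ± 0.36, adjusted p = 0.557). Zglp1, which encodes a regulator of the oogenic fate, was at 62.5 and 58.6 RPM in females, at 16.3 and 12.6 RPM in males and at 1.18 and 1.90 RPM in d4c7, and was not called in culture (adjusted p = 0.863).

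Msx2, a homeobox gene downstream of BMP signals, fell in culture. It went from 24.6 and 31.1 RPM in d4c3 to 7.59 and 12.0 RPM in d4c7 (-1.44 ± 0.29, adjusted p = 0.0200, limma), a call lost without d4c3 replicate 1 (0.107) or 2 (0.136) or d4c7 replicate 1 (0.0721), with no filter (0.0942) and with no mean-variance trend (0.0535). In the embryo it was at 55.5 and 64.5 RPM at E9.5, at 4.38 and 8.43 RPM in males and at 71.5 and 75.2 RPM in females, so the 2 female libraries lay above all others. Females exceeded males by 3.38 ± 0.29 (adjusted p = 7.37e-06).

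**Figure D4:**
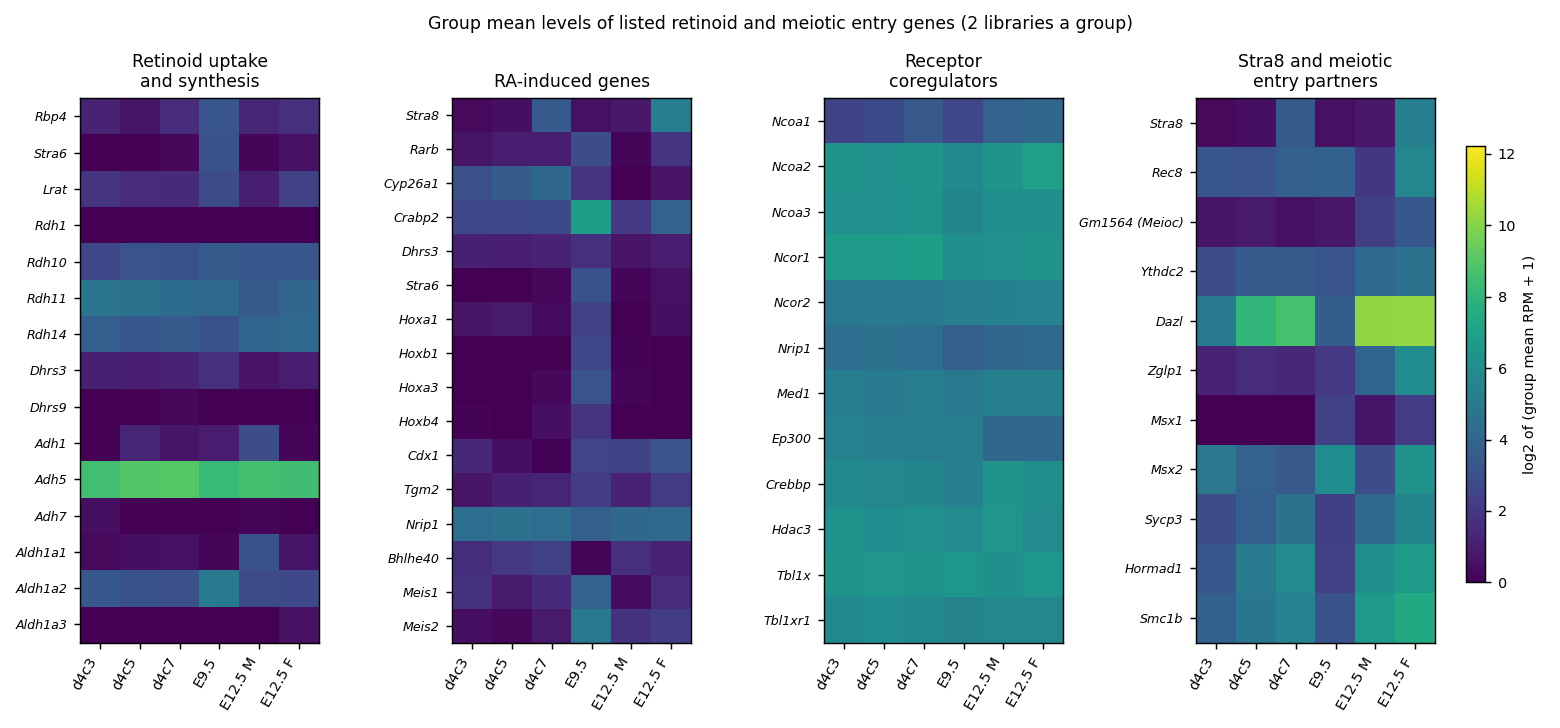
Level of listed genes (rows, grouped by role) in the 6 groups (columns), as log2 of the group mean RPM + 1 over 2 libraries; dark purple is low and yellow is high. Rec8 and Zglp1 are highest in E12.5 females and Stra6 and Hoxa3 are near 0 outside E9.5.

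The genes whose pattern was most like that of Stra8 over the 12 libraries were Exoc5 (Pearson r = 0.910), Sec62 (0.896), Gadd45b (0.891), Shroom3 (0.888), Dip2a (0.885) and Esyt3 (0.873), among 8601 genes with a group mean of at least 10 RPM. Exoc5, the nearest, changed little in level, from 30.6 ± 1.25 RPM in d4c3 to 41.4 ± 0.861 RPM in d4c7, with 47.8 ± 4.97 RPM in females. Gadd45b was at 12.6 ± 2.22 RPM in d4c7 and 24.1 ± 0.704 RPM in females, against 5.94 to 8.88 RPM on average in the other groups. Its spread was wide in d4c3 (8.53 ± 4.87 RPM). Nearest to Crabp1 were Taldo1 (0.972) and Cd24a (0.961), to Crabp2 Nrp2 and Meis3 (0.965 each), and to Rxra Sdc1 (0.939) and Slc25a25 (0.931). Nearest to Cyp26a1 were Eif2ak4 (0.954) and Nmt1 (0.930), to Rara Snd1 (0.956) and Tstd2 (0.953), to Rarb Sept6 (0.928) and Thsd4 (0.921), and to Rarg Prkag2 (0.853) and Fads1 (0.841). These values describe likeness over libraries that share groups and depth.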

How the data were processed

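RNA from sorted cells was amplified and read by 3′-end sequencing on a SOLiD instrument, per the labels' protocols. The deposited values are RPM, which the authors scaled to reads in genes. The submitters' processing notes list Cufflinks 2.2.0, TopHat 1.4.1, cutadapt 1.3 and build mm10, without roles. The most common positive value of a library was taken as the RPM of 1 read. Of the values up to 20 reads, 81.6% to 87.3% were whole within 0.1 read, so no count test was run; for the 9 genes 106 of 108 values were whole, and reads are quoted for them. The 92 spike-in rows were left out. Analysis used limma 3.58.1 in R 4.3.3 on log2(RPM + 1), filtered at 5 RPM in 2 libraries, with a mean per group and a mean-variance trend (6 residual and 8.02 prior degrees of freedom), and was tested on simulated data. Positions are RefSeq, GRCm38.p6. Replicate numbers name no shared batch and were not used as pairs. Pathway genes, lists and named genes (up to 4 called genes per list with the largest change; examples named beyond these were chosen after their values were seen) were set with earlier results of these data known. Some listed genes are not reported here and were left out of the list counts. Meiosin was not analysed here.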

Additional observations from a re-analysis of the deposited data

Results flagged for a closer look

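Effects differed between settings by a test of the difference itself (limma, adjusted over 10856 genes, log2 scale). The change in culture from d4c3 to d4c7 exceeded that from E9.5 to E12.5 males by 2.95 ± 0.54 for Stra8 (adjusted p = 0.00264), 2.41 ± 0.52 for Crabp1 (0.00689), 5.11 ± 0.59 for Crabp2 (0.000108), 2.81 ± 0.68 for Rarb (0.0127) and 3.51 ± 1.00 for Cyp26a1 (0.0277). For 3 of these, Crabp1, Crabp2 and Rarb, the embryonic level fell from E9.5 and the change in culture was not called. For Cyp26a1 neither change was called, in culture (1.67 ± 0.71, adjusted p = 0.252, limma) or from E9.5 to males (-1.84 ± 0.71, 0.0536). The call of its difference was lost under several alternatives, as given above. Rarb passed the filter through E9.5 alone, so its fall was fixed by the filter. Stra8 passed it through d4c7 and the E12.5 females alone, and Cyp26a1 through the culture groups alone. The E9.5 libraries also had the high blood and mesoderm marker sums, whose part was not tested.

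The culture change exceeded that to E12.5 females by 3.19 ± 0.59 for Crabp2 (adjusted p = 0.00265). The change to females exceeded that to males by 4.49 ± 0.38 for Stra8 (adjusted p = 6.49e-06), 1.69 ± 0.37 for Crabp1 (0.00900), 1.92 ± 0.41 for Crabp2 (0.00817), 1.65 ± 0.48 for Rarb (0.0406) and 1.34 ± 0.38 for Rxra (0.0347). Both sexes were set against the same E9.5 libraries, so the last 5 are the differences between females and males.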

How the results depend on the processing

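No change of the 8 tested genes that was called, or had an unadjusted p under 0.05, reversed its direction under the alternatives run: pseudocounts of 0.5 and 5, a filter at 10 RPM, no filter, median centring, no mean-variance trend, the compared groups alone, the replicate block, and each library left out. With a library left out 151 of 192 results kept their side of the threshold, 39 lost a call and 2 gained one; under the other settings it was 283 of 315, 21 and 11. Rarb had no value under the 10 RPM filter. Replicate differences correlated at 0.12, 0.13 and 0.46 between the 3 pairs of culture groups and at -0.04 to 0.03 elsewhere. This is a hint of pairing within culture that the labels do not state and that 2 numbers cannot settle, so the numbers were not taken as pairs. Under both numbers Cyp26a1 was higher in d4c7 than in d4c3, and with the replicate block its change stayed uncalled (1.67, adjusted p = 0.163, limma).

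Called genes of the 8 tested moved as follows. Fits of the compared groups alone called 0 from d4c3 to d4c7 (1 in the fit reported), 0 from d4c5 to d4c7 (1), and 6 from E9.5 to females (3). With no filter the calls were 0 from d4c5 to d4c7 and 2 between the sexes (5). A pseudocount of 5 gave 5 from E9.5 to females. For the difference between culture and the female course, a pseudocount of 5, no mean-variance trend and the replicate block gave 2 each (1). With each library left out the number called was 1 from d4c3 to d4c7, 0 from d4c3 to d4c5, 0 to 1 from d4c5 to d4c7, 3 to 4 from E9.5 to males, 2 from E9.5 to females, 1 to 3 between the sexes, 3 to 4 for d4c3 against E9.5, 3 to 4 for d4c7 against males, 4 to 7 for d4c7 against females, 3 to 5 for culture against the male course and 1 to 2 for culture against the female course.

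Over all genes, the calls from d4c3 to d4c7 (298) were 103 with no filter, 184 with no trend, 0 in the compared groups alone and 31 to 786 with a library left out (31 without d4c3 replicate 1, 786 without d4c7 replicate 2). From d4c3 to d4c5 (9) they were 3 with no filter, 20 with median centring (65.0% higher against 77.8%), 0 in the compared groups alone, 22 with the replicate block and 2 to 26. From d4c5 to d4c7 (2) they were 0 with no filter, 1 with no trend, 0 in the compared groups alone and 0 to 30. Fits of the compared groups alone gave 2297 for d4c7 against males (3968) and 2456 against females (4221). Between the sexes (1297) they were 538 to 567 with a library left out. Of the listed genes, Zglp1 reversed from d4c3 to d4c7 without d4c3 replicate 1 or d4c7 replicate 2 (-0.14 to 0.49 with a library left out; never called). Called genes of the meiotic entry list from d4c3 to d4c7 were 4 to 6 with a library left out (6), of the uptake and synthesis list from E9.5 to males 4 to 7 (9), and of the induced list 6 each time (6). The causes of these shifts were not tested. With 2 libraries a group and 1 read worth 0.172 to 0.452 RPM, differences of genes under about 5 RPM are limited by counting.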

Other observations

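Of 12 coactivator and corepressor genes of the receptors, all tested, limma called 0 from d4c3 to d4c7 (1 at an unadjusted p under 0.05; 2.75% of all genes), 5 higher and 2 lower from E9.5 to males (37.7%), 4 higher and 1 lower from E9.5 to females (37.5%), and 1 between the sexes (11.9%). The difference between the change in culture and that in the embryo was called for 1, Crebbp, against males and for 2, Ncoa2 and Crebbp, against females. The coactivator gene Ncoa2 averaged 126 ± 4.04 RPM in females, 80.0 ± 6.98 RPM in males and 56.5 ± 5.10 RPM at E9.5 (SD, n = 2), higher in females than in males by 0.65 ± 0.14 on the log2 scale (adjusted p = 0.00852). That call was lost without male replicate 1 (0.0888), female replicate 1 (0.0520) or female replicate 2 (0.0731). Crebbp, which encodes the acetyltransferase CBP, rose from 37.4 ± 1.88 RPM at E9.5 to 80.2 ± 10.0 RPM in males (adjusted p = 0.000175), while its relative Ep300 fell from 33.6 ± 0.826 RPM to 15.9 ± 4.11 RPM (adjusted p = 0.00731), a call lost without E9.5 replicate 1 (0.0569) or male replicate 2 (0.0856). With a library left out, 1 to 4 of the 7 calls from E9.5 to males were made.

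Of 12 genes listed as holding back meiotic entry in some stage or sex 10 were tested. Whether a member holds it back at the stages studied here was not tested. Of the 10, limma called 0 between females and males (1 at an unadjusted p under 0.05), against 11.9% of all genes. That count leaves out Nanos2, which did not pass the filter. Nanos2 was at 1.88 and 1.81 RPM in males, at 0 and 0.251 RPM in females and at 0 at E9.5 and in culture. In culture 1 was called (2.75% of all genes), Dmrt1, a transcription factor gene of the gonad and germ line, which rose from 20.7 and 28.8 RPM in d4c3 to 59.7 and 73.6 RPM in d4c7 (adjusted p = 0.0120, limma; 0.161 without d4c3 replicate 1, 0.0869 with no filter, 0.0538 with no mean-variance trend and 0.229 in the compared groups alone). It averaged 114 ± 10.8 RPM in females, 106 ± 1.31 RPM in males and 9.73 ± 4.92 RPM at E9.5. Pcgf6, of a Polycomb complex that represses germ cell genes, changed by -0.70 ± 0.17 from E9.5 to males (adjusted p = 0.00594; 0.0882 without male replicate 2).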
